A study of Mus musculus with 12 samples.

Results

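Transcripts of the unfolded protein response and of the integrated stress response were measured in gastrocnemius muscle of wild-type mice and of mice with 3 engineered Gmppb alleles. The set held 10 genes, found by symbol among the 30488 symbols of the deposited table: Chac1, Atf4, Ddit3, Trib3, Asns, Hspa5, Xbp1, Herpud1, Dnajb9 and Sdf2l1. Chac1 was selected on its measured level in these mice, high in the KO and P32L lines, and the others were chosen for their known roles with earlier results known, so all group differences are given as descriptions. Of the 10, 8 averaged at least 1 TPM (transcript abundance per length, scaled to a fixed library total) over the 12 mice and entered the fit across genes. Trib3 and Asns lay below that level in the mean and are described by their values.

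When unfolded proteins collect in the endoplasmic reticulum, sensors in its membrane slow translation by phosphorylating eIF2 alpha, splice the Xbp1 transcript and release the factor ATF6. The integrated stress response shares the eIF2 alpha step with kinases that sense amino acid shortage, viral RNA and heme shortage. It favours translation of ATF4, a transcription factor for amino acid supply and, through CHOP, for cell death. In skeletal muscle both programs are known for changes with exercise, fasting and myofibre disease. Gmppb encodes GDP-mannose pyrophosphorylase B, which supplies GDP-mannose for the glycans of alpha-dystroglycan and for N-linked glycans, many of which are attached in the endoplasmic reticulum.

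Each of the 4 groups held 3 mice aged 32 weeks on a standard diet. WT mice carried no engineered allele. KO mice were heterozygous for a Cas9 deletion of 303 bp in exons 2 and 3 of Gmppb, so 1 intact copy remained. P32L mice were heterozygous for a C-to-T change at base 95, which replaces proline by leucine at residue 32, and R287Q mice were homozygous for a G-to-A change at base 860, which replaces arginine by glutamine at residue 287. Whole muscle was sequenced, so fewer cells of a type and less RNA per cell cannot be told apart. Gmppb itself was at 4.42, 3.02 and 3.61 TPM in WT and at 3.37, 3.62 and 3.33 TPM in KO. P32L mice had 3.57, 3.55 and 3.26 TPM and R287Q mice 3.03, 4.09 and 4.16 TPM. These groups overlapped, and a gene-level value, which also counts exons outside the deletion, does not check the KO label. All 12 of 12 fibre markers were expressed, with a summed level of 41925 to 62820 TPM per mouse, led by Acta1, the skeletal actin. Values are TPM with the SD over n = 3 mice, the depth of the libraries is unknown, and transcripts of the mitochondrial genome with 7 nuclear copies of it took 72.6% to 78.8% of all TPM.

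Chac1 encodes an enzyme that breaks down glutathione and is a known target of ATF4. Its level was 5.35, 23.5 and 11.7 TPM in WT and 61.4, 95.8 and 62.2 TPM in KO. P32L mice had 84.6, 20.6 and 57.6 TPM and R287Q mice 23.2, 10.6 and 23.2 TPM. All 3 KO mice and 2 of the 3 P32L mice lay above every WT and R287Q mouse, while P32L replicate 2 lay inside the WT range. No mouse lay between 23.5 and 57.6 TPM. The group means were 13.5 ± 9.20 TPM in WT, 73.1 ± 19.6 in KO, 54.3 ± 32.1 in P32L and 19.0 ± 7.29 in R287Q (SD, n = 3). The mean was 5.41 times the WT mean in KO. The order of the means was KO, P32L, R287Q and WT. KO and P32L overlapped, as did R287Q and WT. On the log2(TPM + 1) scale the difference from WT was 2.53 (SE 0.55, 95% interval 1.32 to 3.75) in KO and 1.93 (SE 0.55, 0.71 to 3.14) in P32L. In R287Q it was 0.59 (SE 0.55, -0.62 to 1.81). Chac1 was selected on these levels, so its intervals, which are for a difference of group means, are descriptions and no test. Chac1 also varied within groups: the SD of its log2 values there was 0.79, larger than that of 99.3% of the 9152 genes tested, and the highest of the 12 mice had 17.9 times the level of the lowest. The difference was 2.04 in KO without WT replicate 1, the mouse with the least Chac1, and 1.43 in P32L and 0.10 in R287Q without that mouse. Without WT replicate 2 the difference of R287Q was 1.08. The related enzyme Chac2, which is no member, was between 3.79 and 5.07 TPM in all 12 mice.

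**Figure D1:**
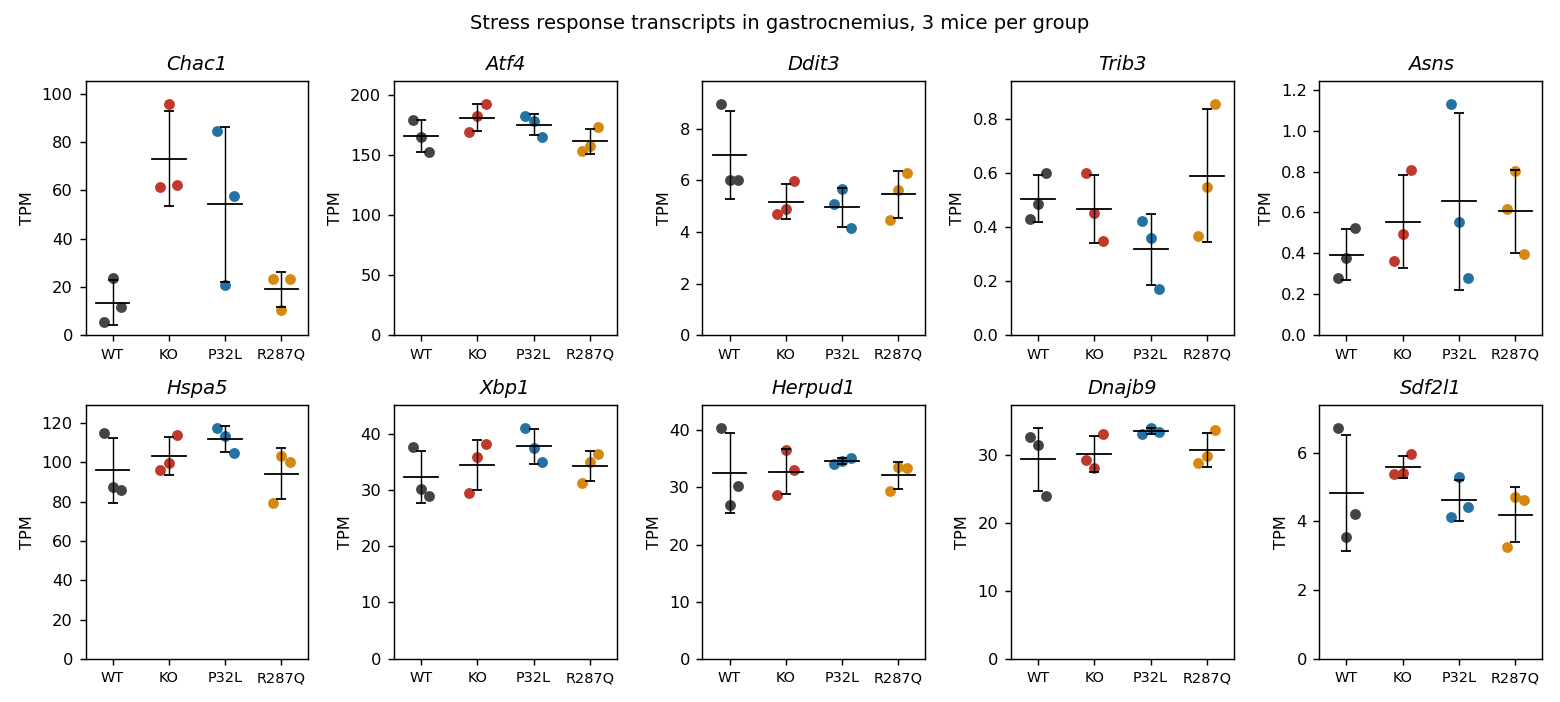
Level of each of the 10 transcripts in TPM (vertical axes, each from 0) in WT, KO, P32L and R287Q mice; points are mice, horizontal bars group means and error bars the SD (n = 3). Chac1 reached 95.8 TPM in KO and stayed at or below 23.5 TPM in WT and R287Q, while Atf4 lay between 152.9 and 192.5 TPM in all 12 mice.

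Stretches of 250 bases before the start of transcription are shown for a pair of genes of the ATF4 arm, Chac1 and Asns, and a pair of the endoplasmic reticulum arm, Hspa5 and Herpud1, since the results set the levels of these arms side by side. They come from RefSeq on GRCm38.p6, the same assembly as mm10, in which all 10 members matched. Capitals mark motifs found by letters on either strand. In Chac1, Asns and Herpud1 they mark CARE (TGATGNAAN), the element that ATF4 dimers bind. In Hspa5 they mark UPRE (TGACGTG) and, nearer the start, ERSE (CCAAT and CCACG, 9 bases apart), the endoplasmic reticulum stress elements. In Chac1 and Herpud1 the CARE match is on the opposite strand and reads GTTGCATCA here.
Chac1, chr2:119350992-119351241, plus strand: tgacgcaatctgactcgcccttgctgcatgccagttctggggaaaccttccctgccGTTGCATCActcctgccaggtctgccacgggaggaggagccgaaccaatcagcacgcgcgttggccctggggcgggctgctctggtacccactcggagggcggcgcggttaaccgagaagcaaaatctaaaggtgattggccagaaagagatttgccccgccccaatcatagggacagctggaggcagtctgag
Asns, chr6:7693210-7693459, minus strand: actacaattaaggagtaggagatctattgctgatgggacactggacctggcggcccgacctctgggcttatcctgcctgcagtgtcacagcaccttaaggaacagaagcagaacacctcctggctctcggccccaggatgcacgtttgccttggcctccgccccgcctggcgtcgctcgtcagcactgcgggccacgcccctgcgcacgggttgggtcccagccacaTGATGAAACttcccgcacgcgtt
Hspa5, chr2:34771840-34772089, plus strand: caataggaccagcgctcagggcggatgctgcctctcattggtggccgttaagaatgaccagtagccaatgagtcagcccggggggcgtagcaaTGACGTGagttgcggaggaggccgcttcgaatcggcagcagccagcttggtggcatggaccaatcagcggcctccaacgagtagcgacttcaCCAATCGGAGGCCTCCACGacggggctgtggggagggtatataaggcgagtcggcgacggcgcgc
Herpud1, chr8:94386179-94386428, plus strand: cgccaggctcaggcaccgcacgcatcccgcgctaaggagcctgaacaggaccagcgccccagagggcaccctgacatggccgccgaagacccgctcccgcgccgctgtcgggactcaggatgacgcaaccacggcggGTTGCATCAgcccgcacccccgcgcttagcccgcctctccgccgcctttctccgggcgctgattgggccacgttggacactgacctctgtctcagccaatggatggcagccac
Over windows of 250 bases before to 50 bases after the start, CARE was in 4 of the 10 members, these 3 and Trib3, and in 3.95% of the 32851 windows of the table. ERSE was in 1 of the 10 and in 0.119% of all windows, and UPRE in 1 of the 10 and in 2.01%. Only the letters and spacing given were searched, so a window without a match, as in Herpud1 for ERSE, can hold other forms. The cAMP response element CRE (TGACGTCA) was in 0 of the 10 and in 1.79%. UPRE shares its first letters with CRE, and no match overlapped another. The 4 windows with CARE belong to genes whose levels ran from 0.172 TPM of Trib3 to 95.8 TPM of Chac1, and a match in letters does not show binding.

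Atf4 (chromosome 15, 80255184 to 80257541, plus strand, mm10), the factor that defines the integrated stress response, was the most abundant member. It was at 179.6, 164.9 and 152.9 TPM in WT and at 169.3, 182.2 and 192.5 TPM in KO. P32L mice had 182.5, 178.4 and 165.4 TPM and R287Q mice 153.5, 157.4 and 173.5 TPM. All 4 groups overlapped. The differences from WT were 0.13 in KO (95% interval -0.07 to 0.33), 0.08 in P32L (-0.12 to 0.29) and -0.04 in R287Q (-0.24 to 0.17). ATF4 is controlled mainly through translation, which a transcript level does not show.

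Ddit3 encodes CHOP, the factor downstream of ATF4 that is tied to cell death. It was at 8.95, 6.01 and 6.01 TPM in WT and at 4.68, 4.89 and 5.96 TPM in KO. P32L mice had 5.09, 5.64 and 4.14 TPM and R287Q mice 4.46, 5.64 and 6.27 TPM. All KO and P32L mice lay below all WT mice, narrowly in KO, and WT replicate 1 stood above the other 11 mice. The differences from WT were -0.36 (SE 0.16) in KO, -0.41 (SE 0.16) in P32L and -0.30 (SE 0.16) in R287Q, the sign opposite to that of Chac1. Without WT replicate 1 they were -0.19, -0.24 and -0.13. Mars1, which encodes methionyl-tRNA synthetase and overlaps Ddit3 on the other strand (named Mars in GENCODE), was at 7.02 to 9.68 TPM, and reads from the overlap cannot be assigned in an unstranded library.

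Trib3, a pseudokinase that ATF4 and CHOP induce and that feeds back on both, was between 0.430 and 0.600 TPM in WT and between 0.348 and 0.600 TPM in KO. In P32L it was between 0.172 and 0.422 TPM, below every WT mouse, as were 3.65% of the genes tested. In R287Q it was between 0.369 and 0.857 TPM. Asns, the ATF4 target that makes asparagine, was between 0.279 and 0.526 TPM in WT and between 0.363 and 0.807 TPM in KO. Its range was 0.280 to 1.13 TPM in P32L mice and 0.397 to 0.803 TPM in R287Q mice. The groups overlapped for Asns in all comparisons. KO replicate 2, with the most Chac1 of all mice, had 0.453 TPM of Trib3 and 0.493 TPM of Asns, both inside the WT range. P32L replicate 1, next in Chac1, had the highest Asns, 1.13 TPM, and KO replicate 3 had 0.807 TPM, while its Trib3 was 0.348 TPM.

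Hspa5 encodes BiP, the main chaperone of the endoplasmic reticulum lumen, which also holds the stress sensors inactive. It was at 115.1, 87.2 and 85.7 TPM in WT, at 95.9, 99.5 and 114.0 TPM in KO and at 117.5, 113.4 and 104.5 TPM in P32L. R287Q mice had 79.2, 103.0 and 100.2 TPM. WT replicate 1 lay among the P32L mice, and P32L lay above R287Q without overlap. The differences from WT were 0.11 in KO (95% interval -0.19 to 0.42), 0.23 in P32L (-0.07 to 0.53) and -0.02 in R287Q (-0.33 to 0.28).

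Xbp1 encodes the transcription factor whose transcript is spliced by the sensor IRE1. Its gene-level value does not separate the spliced form. It averaged 32.2 ± 4.63 TPM in WT, 34.4 ± 4.52 in KO, 37.7 ± 3.09 in P32L and 34.2 ± 2.64 in R287Q (SD, n = 3), with overlap between all groups. Dnajb9 encodes ERdj4, a BiP co-chaperone that is a target of XBP1. It was at 32.6, 31.4 and 24.0 TPM in WT and at 33.1, 34.0 and 33.4 TPM in P32L. P32L lay above WT and, with KO at 29.3, 28.0 and 33.1 TPM, above KO by less than the printed digits show. R287Q mice, at 28.8, 29.8 and 33.6 TPM, overlapped all other groups.

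Herpud1 encodes a membrane protein that helps to remove misfolded proteins from the endoplasmic reticulum. Its levels were 40.4, 27.0 and 30.3 TPM in WT and 28.7, 36.6 and 33.1 TPM in KO. P32L mice had 34.2, 34.6 and 35.1 TPM and R287Q mice 29.3, 33.6 and 33.4 TPM. Both the highest and the lowest level of Herpud1 were in WT mice. Sdf2l1, which works with ERdj chaperones in the lumen, was at 6.72, 3.55 and 4.20 TPM in WT and at 5.39, 5.39 and 5.96 TPM in KO. P32L mice had 4.13, 5.28 and 4.43 TPM and R287Q mice 3.26, 4.71 and 4.63 TPM, all below the KO mice. The WT mice spanned all other mice for Herpud1 and all but R287Q replicate 1 for Sdf2l1.

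In the fit across all genes (limma, two-sided, Benjamini-Hochberg over 9152 genes), 0 of the 7 tested members other than Chac1, whose level entered the choice, had an adjusted p under 0.05 in any comparison with WT. The lowest was 0.825 in KO, 0.656 in P32L and 0.981 in R287Q. Of all genes 0.0109% were called in KO, 0.0437% in P32L and 0% in R287Q. At an unadjusted p under 0.05, 1 of these 7, Ddit3, was counted in KO and in P32L and 0 in R287Q, beside 5.95%, 6.52% and 5.36% of all genes. Limma without trend, with robust variance or on the 2 groups alone also called 0. The median log2 difference over the 8 members was 0.10 in KO, 0.15 in P32L and -0.01 in R287Q, against 0.006, 0.015 and -0.036 over all genes tested. Groups without overlap were found for Chac1, which was chosen for it, higher (all genes 4.39%) and 1 other member lower (Ddit3, 3.47%) in KO. In P32L they were found for 1 higher (Dnajb9, 5.56%) and 1 lower (Ddit3, 3.65%), and in R287Q for 0 (3.02% higher and 5.99% lower). These counts cover the 8 members in the fit, and Trib3, outside it, also lay below every WT mouse in P32L. The 3 comparisons share the WT mice. The 95% intervals of the 7 members lay within -0.71 to 0.61 in KO, -0.77 to 0.53 in P32L and -0.65 to 0.37 in R287Q.

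**Figure D2:**
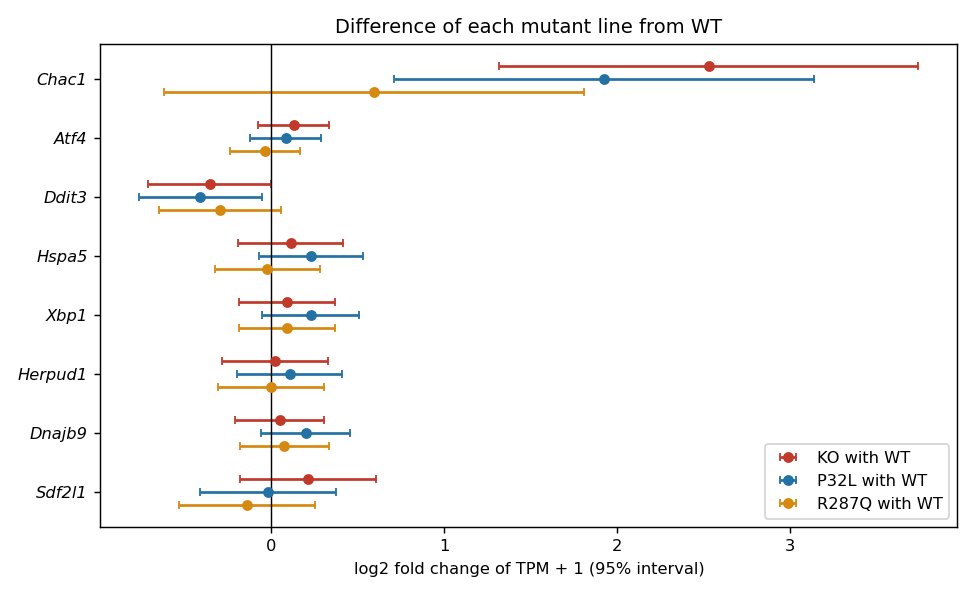
Difference of each mutant line from WT in log2(TPM + 1) (horizontal axis) for the 8 members tested; points are estimates and bars 95% intervals from the fit over 12 mice. Chac1, selected on its level so that its bars are no test, stands at 2.53 in KO and 1.93 in P32L. The other 7 lie between -0.41 and 0.23 in these lines.

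The lines were also set against each other. Chac1 differed by -0.61 between P32L and KO (SE 0.55, 95% interval -1.82 to 0.61), by -1.94 between R287Q and KO (-3.15 to -0.72) and by -1.33 between R287Q and P32L (-2.55 to -0.12). For Chac1, selected on its level, these intervals are no test. In its level all R287Q mice lay below all KO mice, while R287Q and P32L overlapped through P32L replicate 2. Of the other 7 members, 0 passed (lowest limma adjusted p = 0.796 for P32L with KO, 0.678 for R287Q with KO and 0.821 for R287Q with P32L), beside 0.0219%, 0.0437% and 0% of all genes. At an unadjusted p under 0.05, the count was 0 of these 7 in all 3, beside 8.01%, 7.93% and 6.67% of all genes. Without overlap, Dnajb9 lay higher (all genes 7.99%) and Sdf2l1 lower (4.98%) in P32L than in KO. Chac1 and Sdf2l1 lay lower in R287Q than in KO (7.97%), and 0 members lay higher (2.68%). Between R287Q and P32L 7 of the 8 members had the lower mean in R287Q, with a median of -0.12, and over all genes tested 32.7% were higher and the median was -0.05. Hspa5 and Herpud1 lay lower in all R287Q mice than in all P32L mice, beside 10.2% of all genes, and 0 members lay higher (2.31%).

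Members other than Chac1 that passed the filter varied together from mouse to mouse, while Trib3 and Asns did not do so throughout. Over the 12 mice Trib3 had a Pearson r from -0.29 with Dnajb9 to 0.34 with Ddit3. Asns had one from -0.18 with Sdf2l1 to 0.43 with Xbp1. Among Atf4, Ddit3, Hspa5, Xbp1, Herpud1, Dnajb9 and Sdf2l1, all 21 pairs had a positive Pearson r over the 12 mice, from 0.14 to 0.87 with a median of 0.60. These pairs belong to a family of 36 that was added after the data were seen, and they share libraries and the scaling of TPM. Pairwise r among other genes was not computed, and these pairs were not repeated without mitochondrial transcripts. It is thus not shown that the shared variation is particular to these members. Hspa5 and Xbp1 had r = 0.87 (permutation p = 0.00035, adjusted p = 0.0126) and Spearman's rho = 0.88 (permutation p = 0.00041, adjusted p = 0.0148). Without the 2 mice farthest from the Hspa5 median r was 0.87 (permutation test, adjusted p = 0.0133), and for deviations from group means it was 0.88. Atf4 correlated with Hspa5 at r = 0.79 (permutation p = 0.00268, adjusted p = 0.0461, rho = 0.76 with p = 0.0056 and adjusted p = 0.0672) and with Xbp1 at r = 0.75 (permutation p = 0.00678, adjusted p = 0.0488, rho = 0.85 with p = 0.00089 and adjusted p = 0.016). Herpud1 correlated with Xbp1 at r = 0.77 (permutation p = 0.00384, adjusted p = 0.0461, rho = 0.59 with p = 0.0467 and adjusted p = 0.210) and with Hspa5 at r = 0.74 (permutation p = 0.00612, adjusted p = 0.0488, rho = 0.66 with p = 0.0239 and adjusted p = 0.172). These 5 of the 21 pairs had an adjusted p of r under 0.05. After leaving out the 2 mice farthest from the median of the first gene, r was 0.65 to 0.72 for 4 of them, and over the 10 mice that remained these did not pass (permutation test, adjusted p from 0.191 to 0.231). For deviations from group means Atf4 and Xbp1 had r = 0.92 (exact permutation within groups, adjusted p = 0.0417). Hspa5 with Xbp1 had an adjusted p of 0.0417 in the same test. Atf4 with Hspa5 (r = 0.80, adjusted p = 0.103), Herpud1 with Xbp1 (r = 0.77, adjusted p = 0.139) and Herpud1 with Hspa5 (r = 0.74, adjusted p = 0.152) did not pass it. Ddit3 correlated weakly with Hspa5 in levels (r = 0.31, permutation p = 0.327, adjusted p = 0.611, rho = 0.17 with p = 0.590) and more closely in deviations from group means (r = 0.93, exact permutation within groups, adjusted p = 0.0648).

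The r of Chac1 with the other 9 members ran from -0.69 to 0.44 over the 12 mice. These values are descriptions, with no test, since Chac1 was selected on its level in these groups. With Ddit3 it had r = -0.69 and rho = -0.48. That r was -0.46 without the 2 mice farthest from the Chac1 median, which narrows the range of Chac1, -0.58 for deviations from group means and -0.88 on a TPM scale rebuilt without mitochondrial transcripts. With Atf4, whose protein is known to induce it, Chac1 had r = 0.44 and rho = 0.55. That r was 0.67 without the 2 farthest mice and -0.14 in deviations. With Hspa5, Xbp1 and Dnajb9 it was 0.15, 0.19 and 0.16 over all mice, 0.48, 0.39 and 0.51 without the 2 farthest, and -0.50, -0.21 and -0.13 in deviations. The sign of these relations thus differed between levels and deviations. With Herpud1 and Sdf2l1 r was -0.10 and -0.06 over all mice and 0.17 and 0.27 without the 2 farthest. In deviations it was -0.47 with Herpud1 and -0.79 with Sdf2l1, and 0.07 with Trib3 and 0.13 with Asns. The gap in Chac1 levels over mice limits what a single r can describe.

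**Figure D3:**
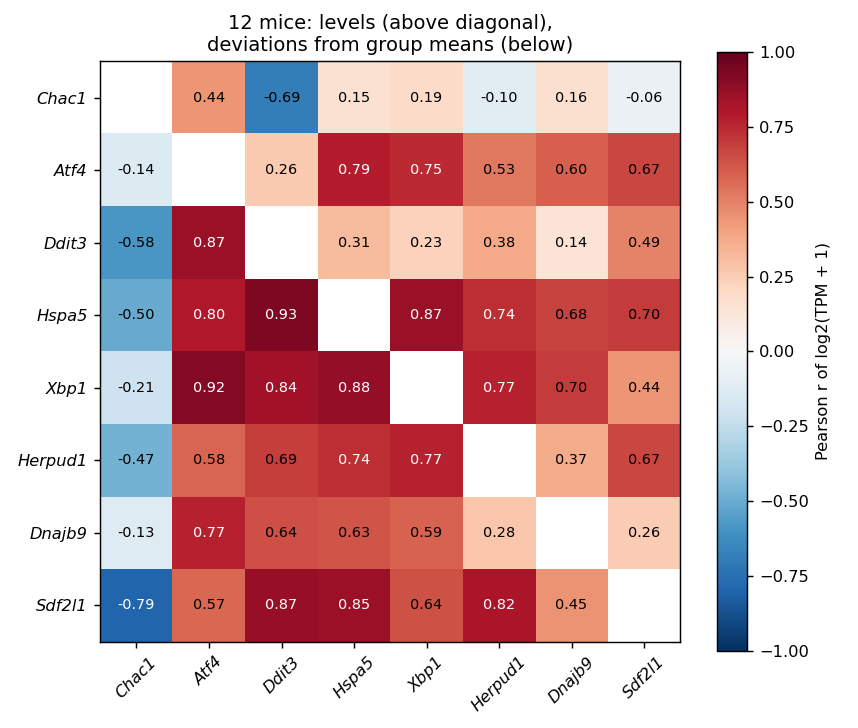
Pearson r over 12 mice between the 8 members tested, of log2(TPM + 1) above the diagonal and of deviations from group means below it; red is positive and blue negative. The 21 pairs without Chac1 are positive above and below the diagonal, while Chac1 runs from -0.69 with Ddit3 to 0.44 with Atf4 in levels.

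Genes with the pattern most like Chac1 were looked up among the 9151 other genes tested, by Pearson r of log2(TPM + 1) over the 12 mice. They were chosen for that r, which therefore carries no test. Cish, which encodes a suppressor of cytokine signalling through STAT5, came first (r = 0.96, rho = 0.92, and 0.90 in deviations from group means). It was at 0.676, 4.49 and 3.97 TPM in WT and at 16.2, 27.9 and 11.2 TPM in KO. P32L mice had 32.3, 4.33 and 11.7 TPM and R287Q mice 2.91, 2.14 and 3.80 TPM. The P32L mouse with low Chac1, replicate 2, was also the P32L mouse with low Cish. Flvcr1, which encodes a choline and heme transporter, was second (r = 0.93, rho = 0.96, and 0.85 in deviations). Its levels were 1.17, 2.65 and 2.04 TPM in WT, 5.64, 8.25 and 7.14 TPM in KO. P32L mice had 7.11, 2.14 and 3.57 TPM and R287Q mice 1.95, 1.92 and 2.14 TPM. Tatdn1 (r = 0.89), Zc3h15 (r = 0.88) and Fastkd2 (r = 0.88), with group means between 1.35 and 8.49 TPM, followed. Among members, the r of Atf4 with Chac1 ranked 1320 from the highest of the 9151 genes and that of Ddit3 9093.

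**Figure D4:**
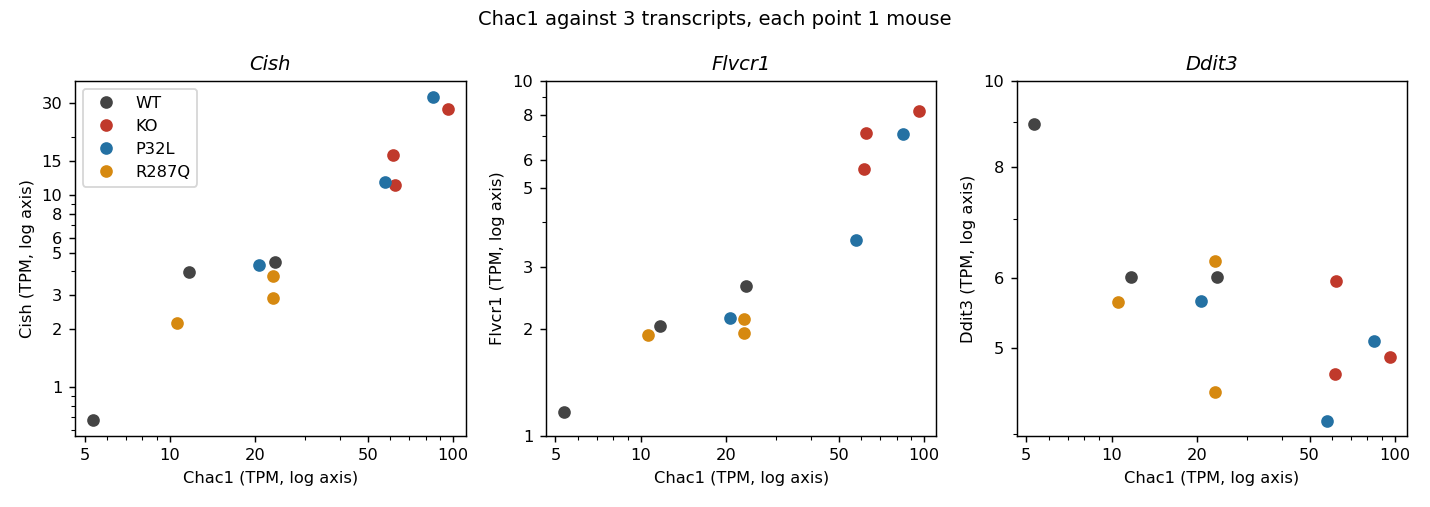
Chac1 in TPM (horizontal, log axis) against Cish, Flvcr1 and Ddit3 in TPM (vertical, log axes); each point is 1 of 12 mice, coloured by group. Cish and Flvcr1 are highest in the KO mice and the P32L mice with Chac1 at 57.6 TPM or more, and Ddit3 is highest, at 8.95 TPM, in the WT mouse with the least Chac1.

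The rest of both pathways was described with 5 lists of 126 other genes, of which 89 passed the filter. In the fit across all genes 0 of the 89 were called by limma in any comparison with WT, nor without trend or with robust variance. At an unadjusted p under 0.05, 2 were counted in KO (2.25%), 4 in P32L (4.49%) and 1 in R287Q (1.12%), below the share of all genes in each line. Their median log2 difference was 0.012 in KO, 0.045 in P32L and -0.032 in R287Q, next to 0.006, 0.015 and -0.036 over all genes.

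Among sensors and regulators of eIF2 alpha, 11 of 17 genes were tested. The medians were 0.07 in KO, 0.01 in P32L and -0.03 in R287Q. Ppp1r15b, the constitutive partner of the phosphatase of eIF2 alpha, was at 12.7 ± 0.227 TPM in P32L and 10.2 ± 1.76 in WT (log2 difference 0.30, limma adjusted p = 0.647). Ppp1r15a, the stress-induced partner, was at 26.5 ± 2.11 TPM in KO and 23.5 ± 3.01 in WT (0.17, adjusted p = 0.898), and differed by -0.22 in R287Q (adjusted p = 0.980). Wfs1, a membrane protein of the endoplasmic reticulum, was at 6.11 ± 0.962 TPM in KO and 7.59 ± 1.53 in WT (-0.27, adjusted p = 0.852). Eif2s1, which encodes eIF2 alpha, differed by 0.12 in P32L (adjusted p = 0.999).

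Among transcription factors and targets of ATF4 and CHOP, 12 of 23 genes were tested, with medians of 0.03 in KO, 0.11 in P32L and 0.02 in R287Q. Cebpb, a transcription factor that pairs with ATF4, was at 10.1, 8.05 and 6.04 TPM in WT and at 12.2, 20.4 and 22.5 TPM in KO. P32L mice had 17.6, 13.6 and 13.1 TPM and R287Q mice 10.9, 11.1 and 13.0 TPM. All mice of the 3 lines lay above all WT mice, as for 4.39% of all genes in KO, 5.56% in P32L and 3.02% in R287Q. The 3 comparisons share the WT mice, and Cebpb is named for its small p. Its differences were 1.08 in KO (SE 0.22, limma adjusted p = 0.366), 0.81 in P32L (adjusted p = 0.332) and 0.51 in R287Q (adjusted p = 0.898). Ddit4, an inhibitor of mTORC1, was at 29.8 ± 4.40 TPM in P32L and 20.5 ± 9.34 in WT (0.63, adjusted p = 0.920). The receptor gene Vldlr differed by -0.31 in KO (adjusted p = 0.898) and the autophagy adaptor gene Sqstm1 by -0.15 in R287Q (adjusted p = 0.981).

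Atf3, a stress-induced factor of the same list, averaged 0.826 TPM and did not enter the fit. It is named after its values were seen. It was at 1.80, 1.64 and 1.47 TPM in P32L, above the other 9 mice, whose highest was 0.934 TPM in KO replicate 3. R287Q mice had 0.440, 0.427 and 0.177 TPM. With the filter lowered to 0.1 TPM it differed by -0.97 between R287Q and P32L (SE 0.13, limma adjusted p = 0.0401) and by 0.77 between P32L and WT (adjusted p = 0.105). It also entered the fit with mitochondrial genes and copies left out. There the difference between R287Q and P32L was -1.65 (SE 0.26, limma adjusted p = 0.239), so the call depends on the setting.

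Genes of amino acid synthesis, transport and tRNA charging, of which 21 of 33 were tested, had medians of -0.01 in KO, 0.01 in P32L and -0.05 in R287Q, with 0 at an unadjusted p under 0.05 in each. The alanine transaminase gene Gpt2 differed by 0.36 in P32L (adjusted p = 0.930) and the glutamine transporter gene Slc1a5 by 0.63 in R287Q (adjusted p = 0.981). In the same line Pycr1 of proline synthesis differed by -0.15 (adjusted p = 0.981), and Slc3a2, a transporter subunit, by 0.19 in P32L (adjusted p = 0.999). Xpot, a tRNA exporter, and Iars, isoleucyl-tRNA synthetase, differed by -0.12 (adjusted p = 0.892) and -0.15 (adjusted p = 0.898) in KO.

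Of chaperones and folding enzymes of the endoplasmic reticulum, 19 of 23 were tested. In KO 14 of 19 lay above WT with a median of 0.06, and in P32L 16 of 19 with a median of 0.05, where 52.1% and 55.5% of all genes did. In R287Q 7 of 19 did, with a median of -0.02 (36.8% of all genes). Creld2, a folding factor induced by ATF6, was at 2.87 ± 0.297 TPM in KO, 2.97 ± 0.431 in P32L and 2.35 ± 0.430 in WT (0.22, adjusted p = 0.852, and 0.25, adjusted p = 0.753). Fkbp2, a prolyl isomerase, differed by 0.22 in KO (adjusted p = 0.852). Hsp90b1, the chaperone GRP94, was at 30.4 ± 2.36 TPM in P32L and 26.3 ± 4.37 in WT (0.22, adjusted p = 0.948). In R287Q Hspa13 differed by -0.13 and Dnajc3, an inhibitor of the kinase PERK, by -0.14 (both adjusted p = 0.981).

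Of genes for protein disposal, translocation and export, 26 of 30 were tested, with medians of -0.01 in KO, 0.05 in P32L and -0.05 in R287Q. In P32L 20 of 26 lay above WT, where 55.5% of all genes did. Derl2, a channel component of the disposal pathway, was at 4.29 ± 0.335 TPM in P32L, 3.93 ± 0.280 in R287Q and 3.46 ± 0.289 in WT (0.25, adjusted p = 0.510, and 0.14, adjusted p = 0.981). Sec61b, a translocon subunit, was at 4.91 ± 0.217 TPM in KO, 4.82 ± 0.312 in P32L and 4.25 ± 0.228 in WT (0.17, adjusted p = 0.752, and 0.15, adjusted p = 0.777). Srprb of the signal recognition receptor differed by -0.18 in KO (adjusted p = 0.877).

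**Figure D5:**
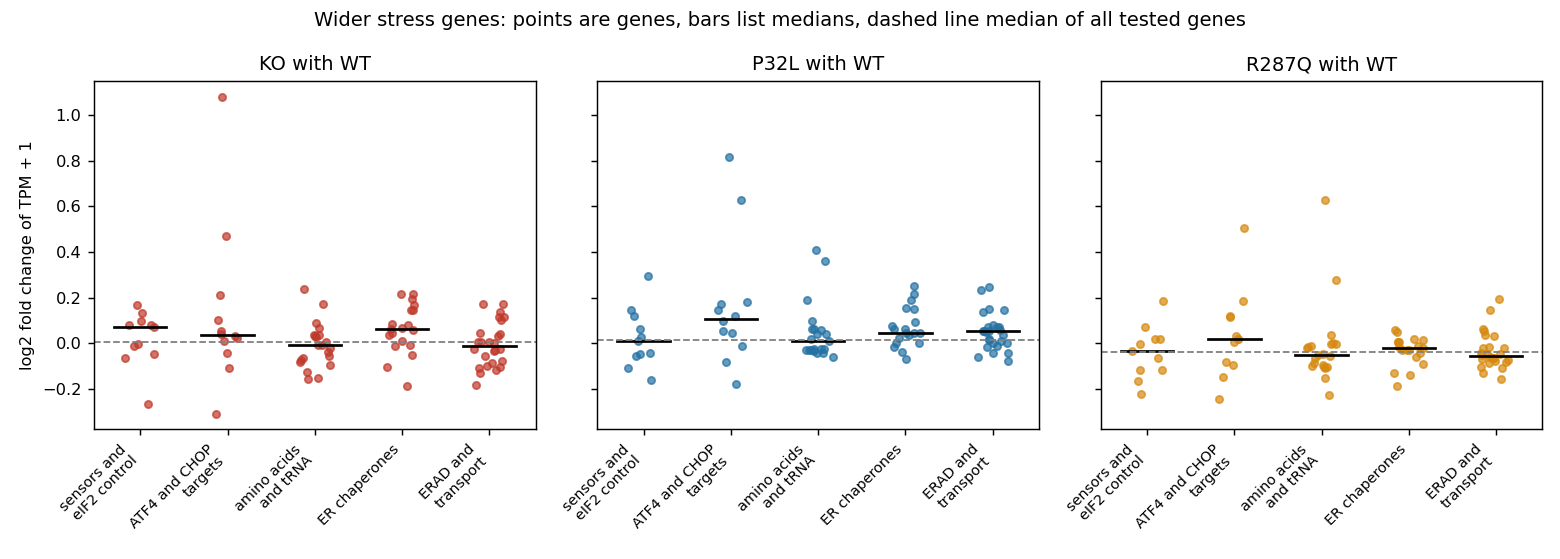
Difference from WT in log2(TPM + 1) (vertical axis) of the 89 other stress genes tested, by list, in KO, P32L and R287Q; points are genes, black bars list medians and the dashed line the median of all 9152 genes. List medians lie between -0.05 and 0.11, and the highest point in KO and in P32L is Cebpb, at 1.08 and 0.81.

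Other lists were also compared with WT, and the lines in which they lay higher differed between lists. Immediate-early genes, which stretch and handling of tissue induce, had means above WT for 17 of 17 tested genes in KO and in P32L and for 9 of 17 in R287Q, with 0 called over all genes in each and 10, 12 and 1 at an unadjusted p under 0.05 (limma). Over all genes tested, 52.1%, 55.5% and 36.8% were above WT in KO, P32L and R287Q, and 5.95%, 6.52% and 5.36% had an unadjusted p under 0.05. The summed immediate-early level was 168.3 to 292.3 TPM in WT, 228.9 to 571.0 in KO, 305.6 to 472.1 in P32L and 162.2 to 228.4 in R287Q. KO replicate 1 had the lowest sum of the KO mice, inside the WT range, with Chac1 at 61.4 TPM, and P32L replicate 2 had a sum of 313.9 TPM with Chac1 at 20.6 TPM. Macrophage and monocyte markers were above WT for 10 of 10 tested genes in KO and in P32L and for 9 of 10 in R287Q. Their median log2 difference was 0.89 in KO, 0.27 in P32L and 0.23 in R287Q, and 7, 0 and 1 of them had an unadjusted p under 0.05. Their sums were 51.3 to 164.4 TPM in WT, 150.7 to 256.3 in KO, 95.0 to 145.0 in P32L and 88.1 to 150.1 in R287Q. The sums of P32L and R287Q thus lay inside the WT range. Cytosolic heat shock genes were above WT for 11 of 15 in KO, 14 of 15 in P32L and 5 of 15 in R287Q, with 0, 6 and 0 at an unadjusted p under 0.05. No macrophage, fibroblast or endothelial marker was at 0 in any mouse. Of plasma and B cell markers, 3 of 12 passed the filter, led by Ighm, while Cd79a, Ms4a1, Pou2af1 and Tnfrsf17 were at 0 in some mice. Their sums were 42.6 to 111.2 TPM in WT, 80.5 to 153.7 in KO, 54.3 to 83.6 in P32L and 28.3 to 115.0 in R287Q. Fibroblast markers summed to 149.7 to 262.5 TPM in WT, 202.7 to 285.4 in KO, 163.8 to 223.4 in P32L and 149.2 to 278.2 in R287Q. Endothelial markers summed to 57.8 to 74.6 TPM in WT, 61.9 to 97.9 in KO, 47.9 to 57.3 in P32L and 53.6 to 57.9 in R287Q. Of them 1, Aplnr, was called lower in P32L than in WT (log2 difference -0.88, limma adjusted p = 0.0418), beside 0.0437% of all genes called. With the replicate block or a pseudocount of 0.01, 0 genes were called in P32L, so this call depends on the setting. Neutrophil markers summed to 2.67 to 5.15 TPM in WT, 1.16 to 9.48 in KO, 1.83 to 18.5 in P32L and 2.97 to 58.9 in R287Q. The part of these lists in the stress transcripts was not tested.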

How the data were processed

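RNA from gastrocnemius muscle of 12 mice was sequenced with NEBNext Ultra RNA libraries, per the labels' protocols, which do not say that strand was kept. The authors deposited log2 values per gene symbol: 2 to the value less 1 summed to 997591 to 998739 in every library, so they were read as log2(TPM + 1). FastQC, HISAT2, StringTie, DESeq2 and mm10 are named per the submitters' processing notes. Tool versions, annotation and further adjustment: not given in the sources used here. TPM keeps no depth, so no counting error is given. Per library 23.9% to 30.3% of symbols were listed at 0.

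The 9152 genes whose mean reached 1 TPM entered a limma fit (version 3.58.1, R 4.3.3) of 4 group means whose prior variance followed the mean level, with 8 residual and 3.11 prior degrees of freedom. P-values are two-sided, with Benjamini-Hochberg adjustment across these 9152 genes, and genes were called at an adjusted p under 0.05. Fold changes are differences of mean log2(TPM + 1), which understate changes of low genes. The labels name separate mice but no litter, batch or sex, so p-values measure only the spread between these samples. The procedure was tested on simulated data. Correlations are Pearson and Spearman over 12 mice with 100000 permutations (SciPy 1.17.1), adjusted over 36 pairs, while the 9 relations of Chac1 are given without p. Positions are from GENCODE M21 on mm10. GENCODE lists 2 gene records under the symbol Ddit3, and the longer was used to look up overlapping genes. Which record the deposited level of Ddit3 covers is not known.

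The members and lists were chosen with earlier results of these data known. Named wider genes were those called or, per list and comparison with WT, those with the 2 smallest p, of which 1 is not reported here. The 5 genes with the highest r with Chac1 were named too. The design had assumed TPM with a pseudocount of 1, which the deposited values already held.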

Additional observations from a re-analysis of the deposited data

How the results depend on the processing

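The counts of members called stayed at 0 in all 6 comparisons under all 24 alternatives: pseudocounts of 0.1 and 0.01, no filter or one at 0.1 or 5 TPM, median-of-ratios scaling, quantile normalization, mitochondrial genes and copies left out, limma without trend or with robust variance, the 2 groups alone, the replicate block, and leaving out each mouse. These counts and the member medians include Chac1, which was selected on its level, so for Chac1 they are no test. The wider stress genes called were 0 except for R287Q with P32L, where 1 gene, Atf3, was called with no filter and with the filter at 0.1 TPM, which let it enter. Atf3 also entered with mitochondrial genes and copies left out, and there it was not called (limma adjusted p = 0.239). The median difference of members moved by more than its spread between mice in 1 case: R287Q with KO was 0.13, from -0.08, with mitochondrial genes and copies left out, where the median of all genes was 0.08. Genes called overall moved more: against 1, 4 and 0 in KO, P32L and R287Q with WT, the alternatives gave 0 to 20, 0 to 28 and 0 to 34, and against 2, 4 and 0 between P32L and KO, R287Q and KO, and R287Q and P32L, 0 to 21, 1 to 43 and 0 to 24, most with no filter or, for P32L, quantile normalization. Leaving out a mouse gave 0 to 2, 0 to 7, 0 to 1, 2, 1 to 5 and 0 to 1. The log2 difference of Chac1 ran from 2.04 to 3.01 in KO, 1.43 to 2.50 in P32L and 0.10 to 1.08 in R287Q over the alternatives, at its lowest without WT replicate 1 in each. Without WT replicate 2, the other end for KO and R287Q, those differences were 3.01 and 1.08.

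For deviations from group means the r of Chac1 turned to -0.14 with Atf4, 0.071 with Trib3, -0.50 with Hspa5, -0.21 with Xbp1 and -0.13 with Dnajb9. Without the 2 mice farthest from the Chac1 median it turned to 0.17 with Herpud1 and 0.27 with Sdf2l1. With mitochondrial genes and copies left out it was -0.14 with Hspa5, -0.13 with Xbp1, -0.14 with Dnajb9 and -0.88 with Ddit3. The cause was not tested.

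Whether replicate numbers pair the mice was not settled. Deviations from group means of same-numbered mice correlated at -0.53 to 0.24, over 0.1 in 1 of 18 pairs. Of the 12 libraries 0 correlated best with its own number. Most of these r were negative, and any adjustment made before deposit is unknown. They therefore cannot show that the numbers carry no structure. With the replicate block the members called stayed at 0, the member medians were 0.10 in KO, 0.15 in P32L and -0.01 in R287Q, and the genes called overall were 0, 0 and 0 against 1, 4 and 0. The number of mice per group and the unknown depth limit all of these values.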

Other observations

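The sensors that start these responses differed in level in whole muscle. Eif2ak1, the kinase that senses heme shortage, ran from 3.91 to 5.61 TPM over the 12 mice and Atf6b, a relative of Atf6, from 2.82 to 4.48 TPM. Ern1, which encodes IRE1, ran from 0.319 to 0.585 TPM, Eif2ak3, the kinase PERK, from 0.321 to 0.490 TPM, Eif2ak4, the kinase GCN2, from 0.177 to 0.261 TPM, Eif2ak2, the kinase PKR, from 0.596 to 0.908 TPM and Atf6 from 0.575 to 0.825 TPM. Of the secreted stress factors, Fgf21 was listed at 0 in 11 of 12 mice and reached 0.0807 TPM in R287Q replicate 3, and Gdf15 ran from 0 to 0.185 TPM. Of serine and folate enzymes in the ATF4 list, Shmt2 ran from 8.96 to 13.0 TPM, Psph from 0.926 to 1.33 TPM, Mthfd1l from 0.00838 to 0.0284 TPM, Psat1 ran from 0.168 to 0.467 TPM, Phgdh from 0.281 to 1.47 TPM and Mthfd2 from 0.474 to 0.963 TPM. Calr, which encodes the chaperone calreticulin, was the most abundant of the wider chaperone list at 68.4 to 93.4 TPM. These genes were picked for their known roles, and no comparison between groups was made for them here.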
